A study of Homo sapiens with 54 samples.

Results

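The plasma cell differentiation genes described here were followed in cell lines given calcitriol, the hormonal form of vitamin D. They are TNFRSF17, TENT5C, ITM2C, PRDM1, XBP1, IRF4, BACH2, PAX5, BCL6 and SDC1. Each was taken as the probe set whose only gene symbol in the probe-to-gene table is that gene. This gave 10 probe sets for 10 genes, among 19460 probe sets with 1 symbol for 18417 genes. The study hybridised RNA from 9 human cell lines to Affymetrix Gene 1.0 ST arrays, taken without calcitriol (0 h) or after 8 h or 36 h with it. It used 2 arrays per line and time, which makes 54. The lines GM07019, GM07348, GM10854 and GM12878 are lymphoblastoid lines, B cells immortalised with Epstein-Barr virus, and 24 arrays came from them. The 5 other lines were HL60 (promyelocytic leukaemia), K562 (chronic myeloid leukaemia), the fibroblast lines AG09309 and AG09319, and HepG2 (hepatoma). No line carried an engineered allele in the labels, and no source used here states how much calcitriol was given. A virus-transformed B cell is a proliferating blast, not a plasma cell, and each line is a single source. The titles number the 2 arrays of a group BR1 and BR2, a mark commonly used for biological replicates. No label spells it out or says that they came from separate cultures. P-values for single lines, for differences among lymphoblastoid lines and for HL60 against them cover the spread between arrays. That spread may be technical. The tests over line means took the line as the replicate, so their p-values cover the spread between lines. For GM10854 the line is taken from the cell line field, since the sample titles spell its number differently. The titles of GM12878, AG09319 and HepG2 have another form from those of the other 6 lines (the first title form) and carry a date. GM12878 is the 1 lymphoblastoid line of that form, so what sets this line apart and what sets that form apart cannot be told apart.

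A B cell becomes a plasma cell by exchanging its transcription factors. PAX5, BACH2 and BCL6 hold the B cell and germinal centre state and repress the secretory programme. IRF4, PRDM1 (Blimp-1) and XBP1 drive exit from that state, with XBP1 enlarging the endoplasmic reticulum for antibody secretion. TNFRSF17 encodes BCMA, the receptor through which plasma cells take survival signals, and SDC1 encodes syndecan-1 (CD138), the surface proteoglycan by which plasma cells are sorted. TENT5C is a poly(A) polymerase that stabilises mRNAs of secreted proteins, and ITM2C is a BRICHOS-family membrane protein abundant in plasma cells. Calcitriol acts through the vitamin D receptor, which binds DNA with a retinoid X receptor.

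The stretches of 250 bases before the transcription start are shown for the genes that rose in the lymphoblastoid lines and have a RefSeq promoter in the table used (GRCh38.p14). Capitals mark the motifs TATAAA and ACGTG on either strand (CACGT is the latter read on the other strand), and the stretches with no capitals hold none of the motifs searched. TENT5C lies on the plus strand at chr1:117605798-117606047, ITM2C on the plus strand at chr2:230863935-230864184 (the first of 3 start sites) and PAX5 on the minus strand at chr9:37034269-37034518.
TENT5C: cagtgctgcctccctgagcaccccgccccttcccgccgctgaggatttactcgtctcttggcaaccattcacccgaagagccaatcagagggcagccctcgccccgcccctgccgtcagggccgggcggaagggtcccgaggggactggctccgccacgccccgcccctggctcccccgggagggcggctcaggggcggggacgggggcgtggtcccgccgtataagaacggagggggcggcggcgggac
ITM2C: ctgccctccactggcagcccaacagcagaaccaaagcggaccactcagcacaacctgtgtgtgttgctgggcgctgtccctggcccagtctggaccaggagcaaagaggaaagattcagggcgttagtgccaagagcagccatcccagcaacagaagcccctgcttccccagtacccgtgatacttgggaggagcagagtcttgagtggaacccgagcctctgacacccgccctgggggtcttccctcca
PAX5: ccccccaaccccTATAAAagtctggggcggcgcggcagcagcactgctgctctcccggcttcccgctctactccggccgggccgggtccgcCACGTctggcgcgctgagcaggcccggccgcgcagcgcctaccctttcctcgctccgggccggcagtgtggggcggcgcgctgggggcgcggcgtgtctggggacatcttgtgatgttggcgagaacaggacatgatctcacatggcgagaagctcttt
Promoters of 9 of the 10 genes were in the table. TNFRSF17 was not matched. A pair of vitamin D receptor half-sites (AGGTCA or AGTTCA or GGGTCA or GGTTCA or GGTGCA) as direct repeats spaced by 3 bases, on either strand, was in none of the 9 genes' promoters and in 0.0911% of 35116 promoters of the same length. A single half-site was in 40.3% of promoters, and among the genes described it lay 181 bases before a start of XBP1, 213 before a start of BCL6, and 134 and 142 before the other starts of ITM2C, whose windows overlap. The XBP1-type core ACGTG, present in 18.5% of promoters, lay 76 bases before a start of PRDM1, 202 before one of XBP1, 159 before PAX5 and 59 before one of BCL6. An interferon-type direct repeat of GAAA with 2 bases between its copies (3.02% of promoters) and the E box CACGTG (6.34%) were in none of them. TATAAA (10.7%) lay 32 bases before IRF4 and 238 before PAX5. These letters describe the windows only.

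The median log2 level of an array was between 4.98 and 5.31. BCL6 and BACH2 were below these medians in all 24 lymphoblastoid arrays, and no detection calls were used, so whether they lay above background there cannot be told. The same holds for TNFRSF17 in the non-lymphoblastoid lines, where its arrays lay at 2.52 to 4.91. There were 3 arrays that stood apart from the other arrays of their line, namely an 8 h array of AG09319, a 0 h array of HepG2 and a 36 h array of K562 (median correlation with their line 0.924, 0.967 and 0.972). No untreated culture of the later times was analysed here, so calcitriol and time in culture cannot be told apart in any change against 0 h. Both later times are set against the same 0 h arrays. Markers matched the labelled cell types except in K562 and AG09309. The mean log2 level of myeloid markers was 5.41 to 5.99 in K562, 8.45 to 9.09 in HL60 and 5.18 to 5.89 in lymphoblastoid arrays. Erythroid markers in K562 had means of 7.34 to 7.99. The 0 h arrays of AG09309 carried fibroblast markers (mean log2 level 9.82 to 10.05) and B cell markers as well. The mean log2 level of 4 B cell markers (MS4A1, CD79A, CD22 and BLK, of 6 listed) was 6.27 to 6.29 in those arrays, 4.15 to 5.15 in the other arrays of non-lymphoblastoid lines, and 7.86 to 9.02 in lymphoblastoid arrays. The class differences in level of IRF4, TNFRSF17, PRDM1 and PAX5 are therefore given with and without AG09309. So are the class differences in change of TNFRSF17, TENT5C, ITM2C and PAX5. Comparisons within the first title form are given only with it.

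**Figure D1:**
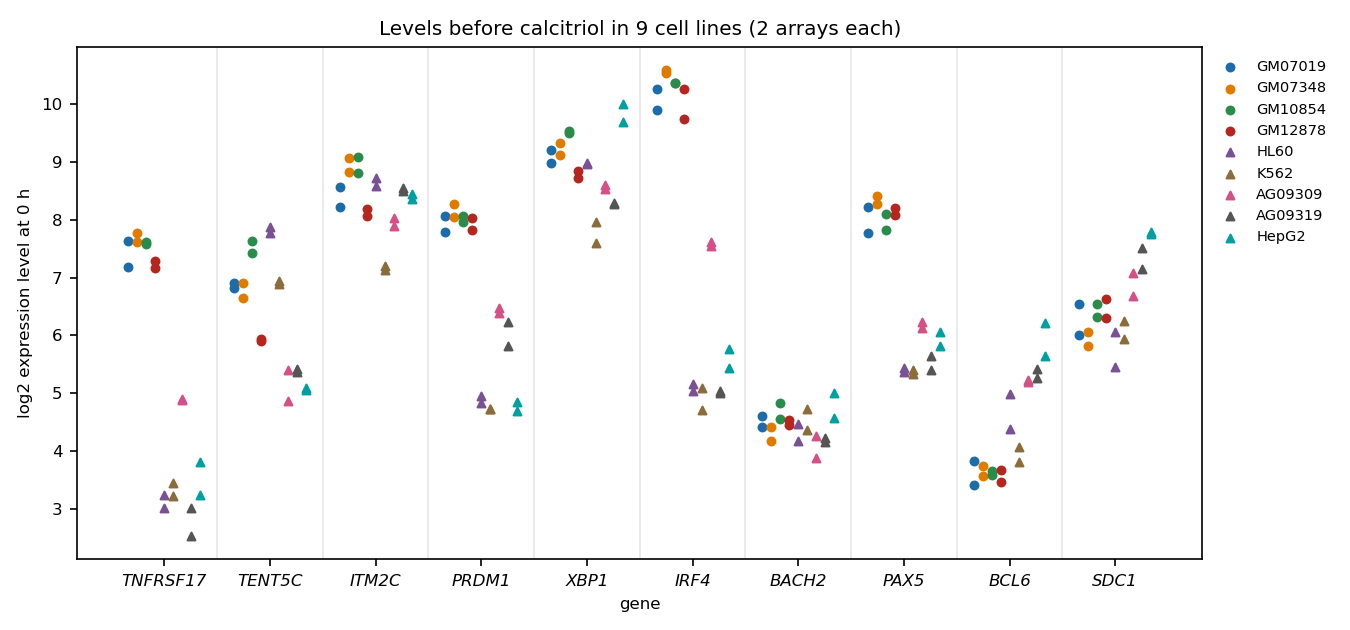
Log2 expression level at 0 h of the 10 genes (horizontal axis) in 9 cell lines, 1 point per array, with circles for lymphoblastoid lines and triangles for the others. TNFRSF17, PRDM1, IRF4 and PAX5 separate the classes in every array, with AG09309 the closest of the other lines for all of these genes, and levels of different genes are not comparable.

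Before calcitriol, IRF4, TNFRSF17, PRDM1 and PAX5 were higher in the lymphoblastoid lines than in the other lines. IRF4 had array levels of 9.74 to 10.59 in the lymphoblastoid lines and line means of 7.58 in AG09309 and 4.90 to 5.60 in the remaining 4. The class difference at 0 h was 4.61 ± 0.50 on the log2 scale (adjusted p = 0.00159, limma on line means, 4 lines against 5). TNFRSF17 stood at 7.22 to 7.69 against 2.77 to 3.53 and 4.89 in AG09309, a difference of 3.95 ± 0.37 (adjusted p = 0.000902). PRDM1, the repressor that shuts down the B cell programme, differed by 2.64 ± 0.36 (adjusted p = 0.0047), with 7.93 to 8.16 in the lymphoblastoid lines, 6.42 in AG09309, 6.03 in AG09319 and 4.73 to 4.89 in K562, HepG2 and HL60. PAX5, the factor that maintains B cell identity, differed by 2.43 ± 0.20 (adjusted p = 0.000676), with 7.96 to 8.34 against 5.36 to 6.18. Without AG09309 the differences were 5.10 for IRF4, 4.29 for TNFRSF17, 2.91 for PRDM1 and 2.55 for PAX5, and all 4 passed. Within the 6 lines of the first title form (3 against 3) they were 4.48 for IRF4 (adjusted p = 0.0546), 3.78 for TNFRSF17 (0.0333), 2.69 for PRDM1 (0.0643) and 2.45 for PAX5 (0.0262), so 2 of the 4 passed. The 3 lines on the other side there were HL60, K562 and AG09309, so the B cell markers of AG09309 at 0 h enter these values. The comparisons by title form were added after the data were seen. For these 4 genes no array of the other lines reached the lowest lymphoblastoid array. The share of all probe sets that separate in this way was not counted. By the limma test 2.22% of all probe sets were called higher and 0.781% lower in the lymphoblastoid lines, against 4 and 0 of the 10. In bulk RNA, fewer cells of a type and less RNA per cell cannot be told apart.

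The other 6 genes did not pass the test between the classes at 0 h, and for each of them arrays of the classes overlapped. TENT5C was highest in HL60 (7.83), followed by GM10854 (7.53), K562 (6.91), GM07019 (6.86), GM07348 (6.77), GM12878 (5.91), AG09319 (5.39), AG09309 (5.13) and HepG2 (5.07). The arrays of K562, GM07019 and GM07348 overlapped, as did those of AG09309 with those of AG09319 and HepG2. ITM2C ran from 7.17 in K562 to 8.95 in GM07348 and GM10854, and HL60 (8.65), AG09319 (8.52) and HepG2 (8.40) lay within the lymphoblastoid range of 8.13 to 8.95. XBP1 was highest in HepG2 (9.85), a secretory liver cell, against 8.79 to 9.52 in the lymphoblastoid lines and 7.77 in K562. SDC1 was highest in HepG2 (7.76), AG09319 (7.33) and AG09309 (6.88), and its lymphoblastoid levels of 5.94 to 6.46 spanned that of K562 (6.10). BCL6 was lowest in the lymphoblastoid lines, at 3.56 to 3.65, with 3.94 in K562, 4.68 in HL60 and 5.21 to 5.93 in the other 3 lines. Its difference of -1.41 ± 0.34 did not pass (adjusted p = 0.0637). BACH2 ran only from 4.06 to 4.79 over the 9 lines.

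Within the lymphoblastoid lines, untreated levels differed for TENT5C and ITM2C, 2 of the 10 genes, while 5.46% of all probe sets differed (F test over the 4 lines, limma). The highest and lowest lines were 1.62 apart for TENT5C (adjusted p = 1.7e-05) and 0.82 apart for ITM2C (adjusted p = 0.000138). For both genes the lowest line was GM12878, the line with the other title form. Over the remaining 3 lines the ranges were 0.76 for TENT5C (adjusted p = 0.0697) and 0.56 for ITM2C (adjusted p = 0.029).

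By 36 h 4 genes had risen in the lymphoblastoid lines, TNFRSF17, TENT5C and ITM2C by 2.07- to 2.12-fold and PAX5 by 1.37-fold. No gene of the 10 fell. The other 6, which include the drivers PRDM1, XBP1 and IRF4, the repressors BACH2 and BCL6 and the surface marker SDC1, did not pass the test. The tests took the line as the replicate (means of 2 arrays, 4 lines, time and line as terms in limma), with p-values adjusted over all 19460 probe sets and a threshold of 0.05. Of all probe sets 1.06% were called higher and 0.0719% lower, against 4 and 0 of the 10. The 10 genes and the gene lists below were chosen with earlier results of these data known. This and the other comparisons of shares are therefore descriptions. Without GM12878, which leaves the lymphoblastoid lines of the first title form, the same 4 genes passed, with rises on the log2 scale of 1.02 for TNFRSF17, 0.85 for TENT5C, 0.97 for ITM2C and 0.52 for PAX5. The median change of the 10 genes was 0.24 and that of all probe sets -0.0093.

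**Figure D2:**
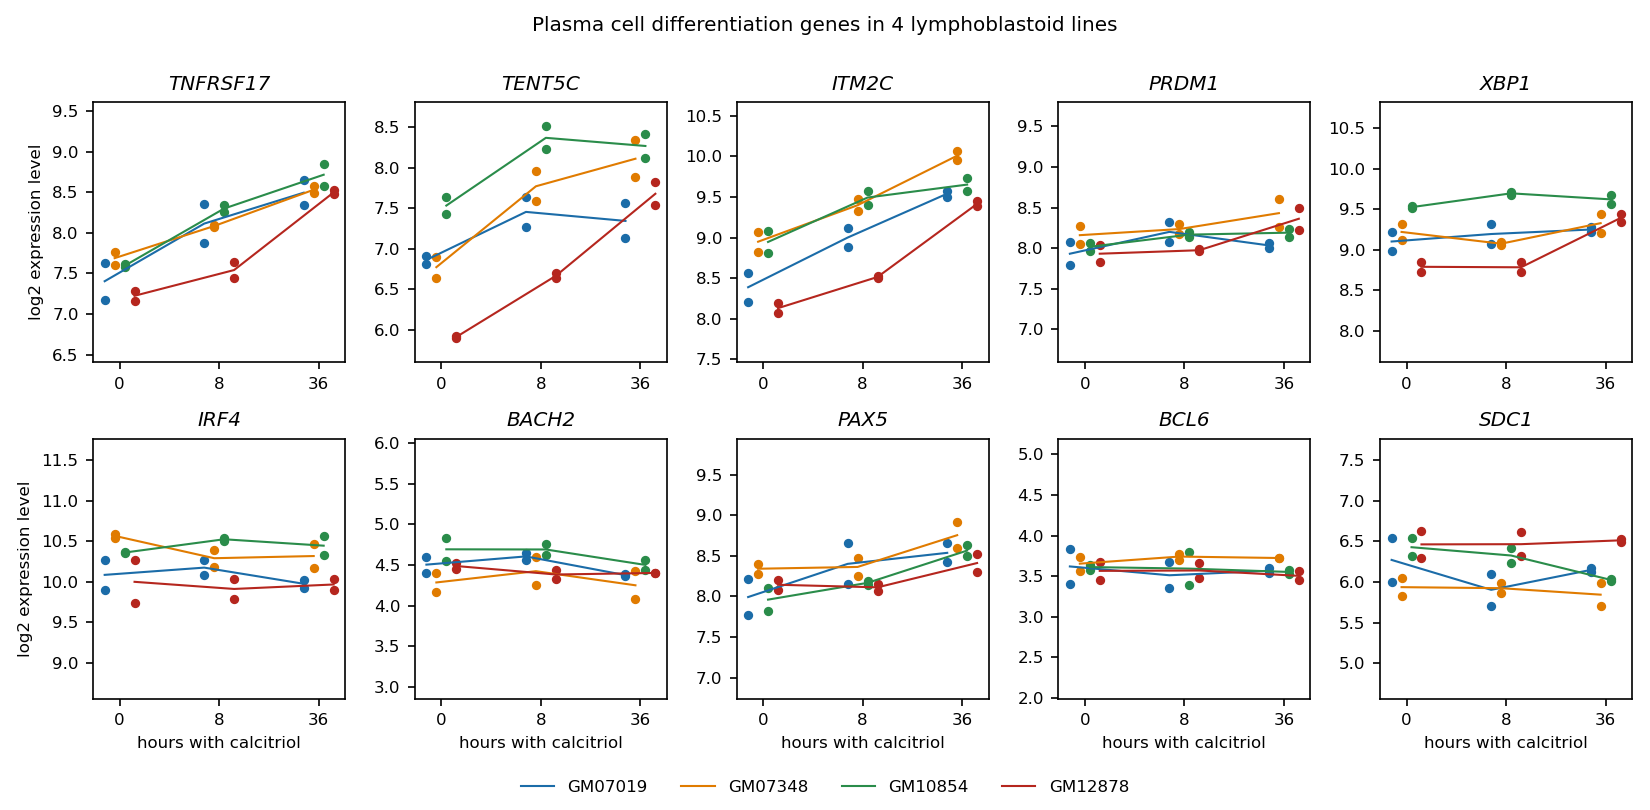
Log2 expression level (vertical axis, the same span of log2 units in each panel) of the 10 genes at 0, 8 and 36 h (evenly spaced) in 4 lymphoblastoid lines, with points for arrays and lines through the means of 2 arrays. TNFRSF17, TENT5C, ITM2C and PAX5 end higher in all 4 lines, and XBP1 climbs by 0.60 in GM12878 against 0.10 to 0.15 in the other lines.

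TNFRSF17, the BCMA receptor gene, had means of 7.40, 7.69, 7.59 and 7.22 at 0 h in GM07019, GM07348, GM10854 and GM12878. At 8 h the same lines stood at 8.11, 8.08, 8.30 and 7.54, and at 36 h at 8.49, 8.53, 8.71 and 8.50. The spread between lines was smallest at 36 h (SD 0.11, n = 4, against 0.21 at 0 h), and all 8 arrays at 36 h lay above all 8 arrays at 0 h. The share of all probe sets with no such overlap was not counted. The rise at 36 h was 1.08 ± 0.10 on the log2 scale, 2.12-fold (adjusted p = 9.81e-06). With the spread taken from all 9 lines in place of 4 the same change had an adjusted p of 0.0601.

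ITM2C, the BRICHOS-family membrane protein gene, also rose. Its means at 0 h were 8.39, 8.95, 8.95 and 8.13 in the same order of lines, then from 8.52 in GM12878 to 9.49 in GM10854 at 8 h, and 9.54, 10.01, 9.65 and 9.42 at 36 h in the first order. All 8 arrays at 36 h again lay above all 8 at 0 h, a pattern whose share over all probe sets was not counted. The rise was 1.05 ± 0.10, 2.07-fold (adjusted p = 1.39e-05), and it kept passing in all 12 alternative settings tried (adjusted p at most 0.00363).

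TENT5C, the poly(A) polymerase gene, had means of 6.86, 6.77, 7.53 and 5.91 at 0 h, 7.45, 7.77, 8.37 and 6.67 at 8 h, and 7.34, 8.11, 8.27 and 7.68 at 36 h. Within each line both 36 h arrays were above both 0 h arrays, but the groups of 8 overlapped, since both 0 h arrays of GM10854 (7.64 and 7.43) lay above the lower 36 h array of GM07019 (7.13). The rise was 1.08 ± 0.15, 2.11-fold (adjusted p = 0.000871, and 0.0548 when all 33297 probe sets were tested). The line changes at 36 h were 0.48 in GM07019, 0.73 in GM10854, 1.34 in GM07348 and 1.76 in GM12878, an SD of 0.58 against 0.18 for TNFRSF17 and 0.25 for ITM2C. The test of unequal change between the 4 lines did not pass for TENT5C (adjusted p = 1.0) or for any of the 10 genes, nor for any probe set (0%). TENT5C was the 1 gene of the 10 with an unadjusted p under 0.05 in that limma test.

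PAX5, a repressor of the plasma cell programme, rose as well. Its means were 7.99, 8.34, 7.96 and 8.14 at 0 h, 8.40, 8.36, 8.17 and 8.11 at 8 h and 8.54, 8.75, 8.57 and 8.41 at 36 h. In each line both 36 h arrays exceeded both 0 h arrays, while the highest 0 h array (8.40) exceeded the lowest 36 h array (8.30). The rise was 0.46 ± 0.09, 1.37-fold (adjusted p = 0.0104). It no longer passed without GM07019 (adjusted p = 0.0629), without GM10854 (0.158), with all probe sets tested (0.0886) or with the spread from 9 lines (0.496).

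Both 36 h arrays lay above both 0 h arrays in each of the 4 lines for 4 of the 10 genes, against 1.12% of all probe sets, and below in each for none of the 10, against 0.283%. At 8 h both arrays were above in each line for TNFRSF17, TENT5C and ITM2C, against 0.17% of probe sets. The B cell marker mean also moved, from 7.89 to 8.47 over lymphoblastoid arrays at 0 h to 8.27 to 9.02 at 36 h. Of its 4 genes CD79A rose (1.30), and MS4A1 (0.27), CD22 (0.27) and BLK (0.03) did not pass. The part of this shift in the changes above was not tested.

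Of the drivers, PRDM1 changed by 0.24 ± 0.09 (adjusted p = 0.215) and was higher in all 4 line means, by 0.10 to 0.43. Its means ran from 7.93 to 8.16 at 0 h and from 8.03 to 8.43 at 36 h. XBP1 changed by 0.24 ± 0.10 (adjusted p = 0.28). The XBP1 means were 9.10, 9.22, 9.52 and 8.79 at 0 h and 9.25, 9.33, 9.62 and 9.39 at 36 h in GM07019, GM07348, GM10854 and GM12878. GM12878 moved by 0.60 and the other 3 by 0.10 to 0.15, and without GM12878 the mean change was 0.12. IRF4 stayed between 9.97 and 10.57 in every line mean at 0 h and 36 h, with a mean change of -0.08 ± 0.09 (adjusted p = 0.706, interval -0.26 to 0.10).

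BACH2, the repressor that delays PRDM1, changed by -0.11 ± 0.08 (adjusted p = 0.529), with line changes of -0.19 to -0.03. BCL6, the germinal centre repressor, changed by -0.03 ± 0.08 (adjusted p = 0.903) and had line means of 3.50 to 3.74 throughout. SDC1 changed by -0.14 ± 0.09 (adjusted p = 0.494), with 5.94 to 6.46 at 0 h and 5.84 to 6.51 at 36 h. For all 3 the groups of arrays overlapped, and 95% intervals ran from -0.28 to 0.05 for BACH2, -0.18 to 0.13 for BCL6 and -0.34 to 0.05 for SDC1.

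At 8 h none of the 10 genes was called higher, against 0.0257% of probe sets. The changes were 0.79 ± 0.15 for TENT5C (adjusted p = 0.161), 0.53 ± 0.10 for TNFRSF17 (0.109), 0.50 ± 0.10 for ITM2C (0.17) and 0.15 ± 0.09 for PAX5 (1.0), and 3 genes of the 10 had an unadjusted p under 0.05 in limma. The count stayed at 0 in 10 of 12 alternative settings. With the replicate number as a block TNFRSF17, TENT5C and ITM2C passed (adjusted p 0.0133 to 0.0165), and with a filter on low values TNFRSF17 did (0.0275). From 8 h to 36 h TNFRSF17 rose by 0.55 ± 0.10 (adjusted p = 0.0247) and ITM2C by 0.55 ± 0.10 (adjusted p = 0.0296), against 0.277% of probe sets called higher. Both calls depended on the settings. TNFRSF17 had an adjusted p of 0.0501 after quantile normalization, 0.0765 without GM10854 and 0.293 without GM12878, and ITM2C 0.123 after quantile normalization, 0.091 without GM07019, 0.0601 without GM07348 and 0.339 without GM12878. TENT5C changed by 0.28 ± 0.15 in that interval (adjusted p = 0.696) and PAX5 by 0.31 ± 0.09 (0.208). As a share of the mean change at 36 h, the change at 8 h was 73.6% for TENT5C, 49.2% for TNFRSF17, 47.4% for ITM2C and 33.1% for PAX5, which is a description since both shares rest on the same 0 h arrays.

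The larger step of TNFRSF17, ITM2C and XBP1 came after 8 h in GM12878 and in GM07348, and that of TENT5C in GM12878. For TNFRSF17 the steps in GM07348 were 0.40 and then 0.45, and for ITM2C 0.45 and then 0.61. In GM12878 TNFRSF17 went from 7.22 to 7.54 to 8.50, TENT5C from 5.91 to 6.67 to 7.68, and XBP1 from 8.79 to 8.78 to 9.39. ITM2C rose by 0.90 ± 0.15 between 8 h and 36 h in GM12878 (adjusted p = 0.00523, 0.0257% of probe sets called higher), and the call was lost when either array of either time was left out (adjusted p 0.130 to 0.346). In GM10854 TENT5C stood at 7.53, 8.37 and 8.27. The difference in timing between lines was not tested.

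Single lines were tested in 1 limma fit of all 54 arrays, 2 against 2 within a line. In GM07019 ITM2C rose by 1.15 ± 0.15 (0.0514% of probe sets called higher). In GM07348 ITM2C rose by 1.06 ± 0.15 and TENT5C by 1.34 ± 0.21 (0.118%), the latter with an adjusted p up to 0.166 when 1 array was left out. In GM10854 ITM2C rose by 0.71 ± 0.15 (adjusted p = 0.0449, 0.0668% of probe sets called higher), and the call was lost without any 1 of the line's arrays (adjusted p up to 0.783), after quantile normalization (0.188) and with all probe sets tested (0.0745). In GM12878 ITM2C (1.28 ± 0.15), TENT5C (1.76 ± 0.21) and TNFRSF17 (1.27 ± 0.25, adjusted p = 0.0279) rose (0.0514%), of which TNFRSF17 lost its call when any 0 h or 36 h array of the line was left out (0.331 to 0.609). That TNFRSF17 call was also lost after quantile normalization (0.0729), with all probe sets tested (0.0695) and with the replicate number as a block (0.0966). PAX5 changed by 0.27 to 0.60 in the 4 lines and passed in none of them.

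Other genes were compared by how closely they followed these 4 over the 12 lymphoblastoid means after subtracting each line's mean. This is a description over points that share lines and times. TNFRSF17 was followed most closely by TNFSF4 (r = 0.986), TRIM38 (0.983) and CTSS (0.980), which changed by 0.81, 0.61 and 0.55 at 36 h. ITM2C was followed by PIK3C2B (r = 0.989), KLF13 (0.987) and CTSZ (0.986). TENT5C was followed by ZNF165 (r = 0.986), SCARB2 (0.963) and TXNDC11 (0.937), and PAX5 by TAF4B (r = 0.989), NSDHL (0.982) and TMEM135 (0.982). Among the 10 genes themselves, TNFRSF17 had r = 0.974 with ITM2C and 0.908 with PAX5. TENT5C had 0.897 with ITM2C and 0.896 with PRDM1. The lowest values were -0.70 for PAX5 and SDC1 and -0.61 for IRF4 and BCL6, and TNFRSF17 and IRF4 had -0.20. Over the 27 means of all lines, where cell type dominates, IRF4 was most like SLAMF7 (r = 0.997), BLNK (0.995) and SIDT1 (0.994), and PAX5 like FCMR (0.990), TRAF1 (0.990) and BTLA (0.989).

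Of 24 other measured genes that mark or serve plasma cells, 3 rose in the lymphoblastoid mean at 36 h and none fell. Of all probe sets 1.06% rose and 0.0719% fell. The list median was 0.13, and 20 of the 24 had a change above 0, against 47.3% of all probe sets. An unadjusted p under 0.05 (limma) was found for 10 of the 24, against 14.7% of all probe sets. CD38, the NAD-consuming surface enzyme that marks plasma cells and plasmablasts, had line means of 5.33 to 6.69 at 0 h, 6.09 to 7.65 at 8 h and 7.69 to 8.55 at 36 h. It rose by 2.07 ± 0.12 at 36 h (adjusted p = 1.09e-08) and already by 0.78 ± 0.12 at 8 h (adjusted p = 0.0271, 0.172 without GM07019, 0.0696 without GM07348 and 0.064 without GM12878). That 8 h call was also lost after quantile normalization (0.0751), with all probe sets tested (0.502) and with the spread from 9 lines (1.0). CD38 also rose in the myeloid line HL60, by 2.03 ± 0.25 at 36 h (adjusted p = 1.03e-06) and by 1.65 ± 0.25 at 8 h (adjusted p = 0.000138). CXCR4, the chemokine receptor that homes plasma cells to bone marrow, rose by 0.79 ± 0.11 (adjusted p = 0.000555), and TXNDC11, a thioredoxin-domain protein of the endoplasmic reticulum, by 0.57 ± 0.09 (adjusted p = 0.0016). JCHAIN, the joining chain of secreted IgM and IgA, had medians over 8 arrays of 10.66 at 0 h and 10.68 at 36 h and a mean change of 0.25 ± 0.12 (adjusted p = 0.344). Its line mean went from 9.51 to 10.34 in GM12878. In GM07019 it went from 10.76 to 10.68, in GM07348 from 10.59 to 10.73 and in GM10854 from 11.05 to 11.16. Without GM07348 the count of the list rose to 6.

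**Figure D3:**
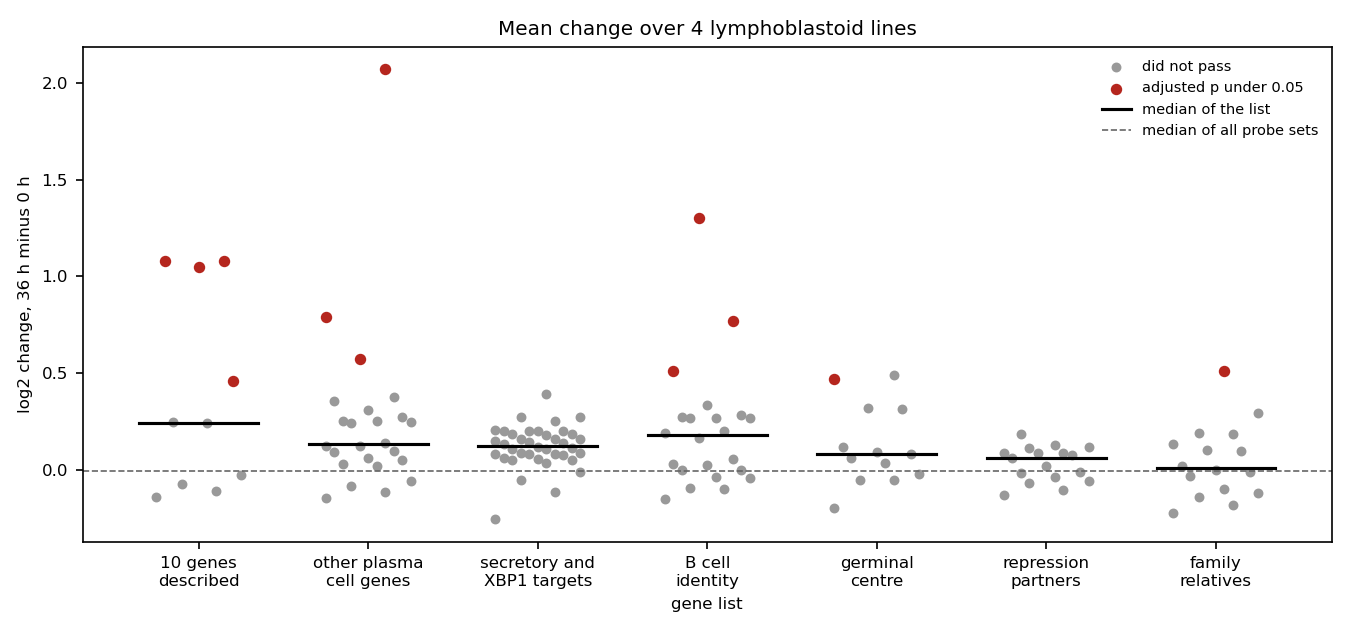
Change at 36 h averaged over 4 lymphoblastoid lines (log2, vertical axis) for the 10 genes and 6 lists, 1 point per gene, with red for adjusted p under 0.05, black bars for list medians and a dashed line for the median of all probe sets (-0.0093). The secretory list has no red point, and 34 of its 38 points lie above 0.

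None of 38 secretory pathway and XBP1 target genes passed (limma), although 34 of them had a change above 0 against 47.3% of all probe sets. The list median was 0.12 and 10 of the 38 had an unadjusted p under 0.05, against 14.7% of all probe sets. DNAJB11, a chaperone partner of the endoplasmic reticulum, changed by 0.39 (adjusted p = 0.0687), SEL1L by 0.27 and HSP90B1 by 0.25. HSPA5, the main chaperone there, changed by 0.10 (adjusted p = 0.613). By line the list median was 0.28 in GM12878 with 35 of 38 genes above 0, and 0.15 in GM10854 with 28. It was 0.064 in GM07019 with 29 and 0.0074 in GM07348 with 21. In the same order of lines, 44.1%, 45.6%, 47.8% and 55.4% of all probe sets were above 0. The share of the list in GM07348, 55.3%, was near that of all probe sets. GM12878 was also the line in which XBP1 moved by 0.60. This difference between lines was not tested. Without GM07348 1 of the 38 passed. In HepG2 13 of the 38 rose at 36 h, against 1.05% of all probe sets there, with a median of 0.52 and 35 above 0, against 46.9% of all probe sets. A 0 h array of HepG2 stood apart from its line (median correlation 0.967), and the count without it is not given here. In K562 none of the 38 passed (limma, 5 with an unadjusted p under 0.05) and 32 were above 0, against 75.4% of all probe sets there.

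Of 22 B cell identity genes 3 rose and none fell (median 0.18), where 1.06% of all probe sets rose and 0.0719% fell, the shares that also stand behind the counts of the lists that follow. CD79A, a signalling chain of the B cell receptor, rose by 1.30 ± 0.11 (adjusted p = 2.31e-06), CR2, the complement receptor CD21, by 0.77 ± 0.11 (adjusted p = 0.000555) and IRF8, a B cell and germinal centre factor related to IRF4, by 0.51 ± 0.08 (adjusted p = 0.00341). With the spread from 9 lines CR2 had an adjusted p of 0.116 and IRF8 of 0.762, and without GM07348 the count was 5. Of 13 germinal centre genes CD86, a costimulatory ligand, rose (0.47 ± 0.09, adjusted p = 0.0142), but not without GM07019 (0.132), GM10854 (0.0968) or GM12878 (0.0773), with all probe sets tested (0.111) or with the spread from 9 lines (0.781), and without GM07348 3 genes of the list passed. None of 17 partners of the repressors, such as corepressors and histone deacetylases, passed (limma, 1 with an unadjusted p under 0.05, median 0.060). Of 16 family relatives of the 10 genes IRF8 alone passed (median 0.0095), and ITM2B (0.29), ITM2A (0.19), TENT5A (0.10) and TNFRSF13B (0.10), the TACI receptor that shares ligands with BCMA, did not.

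**Figure D4:**
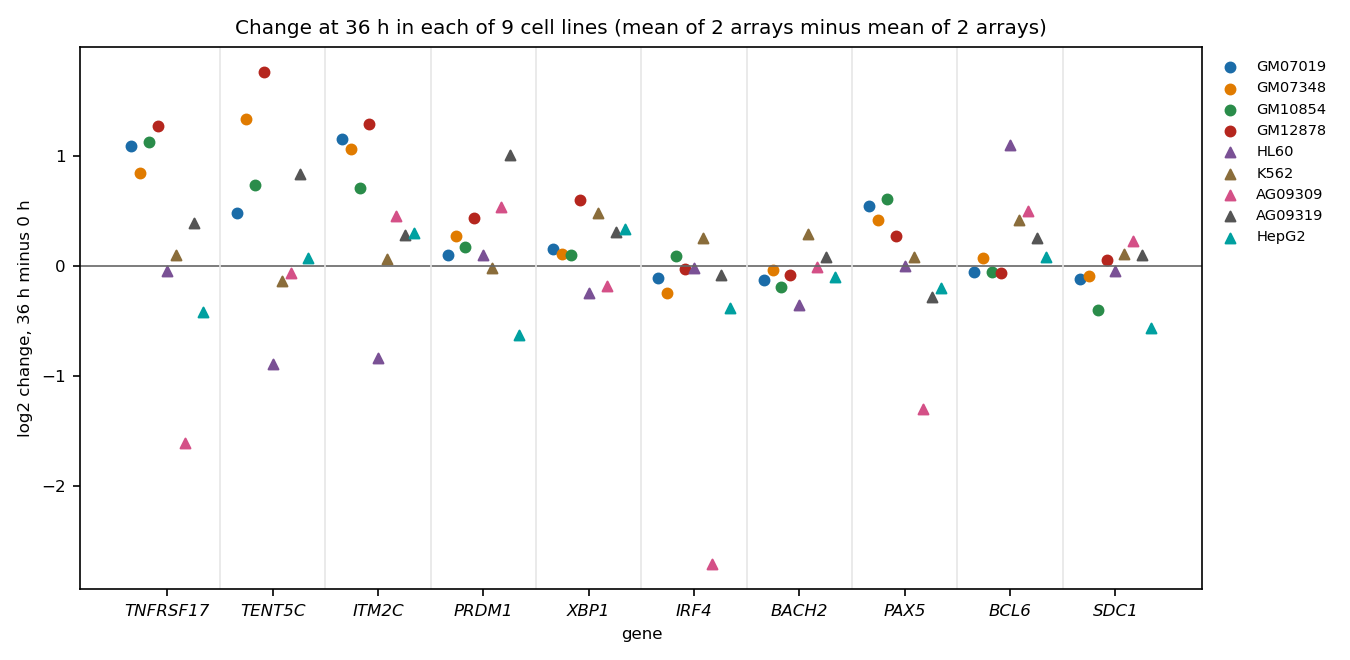
Change at 36 h (mean of 2 arrays minus mean of 2 arrays, log2, vertical axis) of the 10 genes in each of 9 lines, circles for lymphoblastoid lines and triangles for the others. TENT5C and ITM2C rise in the 4 lymphoblastoid lines and fall in HL60, and the lowest points of TNFRSF17, IRF4 and PAX5 belong to AG09309.

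In the 5 other lines the changes were of both signs. No gene of the 10 was called as rising more in the lymphoblastoid lines than in the others at 36 h (limma, class by time on line means, 0.0154% of probe sets called higher), and 5 of the 10 had an unadjusted p under 0.05. The class differences in change were 1.40 ± 0.31 for TNFRSF17 (adjusted p = 0.217), 1.12 ± 0.27 for TENT5C (0.252) and 0.80 ± 0.20 for PAX5 (0.276). That for ITM2C had a 95% interval of 0.57 to 1.43 (adjusted p = 0.142). TNFRSF17 lay below the array medians in the 5 other lines, so whether its changes there were above background cannot be told. Without AG09309 the differences were 1.08 for TNFRSF17 (adjusted p = 0.016), 1.11 for TENT5C (0.393), 1.10 for ITM2C (0.113) and 0.56 for PAX5 (0.29). Without HL60 that for ITM2C was 0.78 (adjusted p = 0.0477). Within the 6 lines of the first title form the differences were 1.54 for TNFRSF17 (adjusted p = 0.457), 1.22 for TENT5C (0.172), 1.08 for ITM2C (0.512) and 0.93 for PAX5 (0.547). These 6 lines include AG09309.

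HL60 moved opposite to the lymphoblastoid lines for TENT5C and ITM2C. TENT5C had arrays of 7.87 and 7.78 at 0 h, 7.36 and 7.24 at 8 h and 7.04 and 6.83 at 36 h, with no overlap between times. It fell by 0.89 ± 0.21 on the log2 scale (adjusted p = 0.0242), a call lost without any 0 h or 36 h array of the line (adjusted p 0.087 to 0.46). ITM2C had 8.58 and 8.72 at 0 h, 8.53 and 8.65 at 8 h and 7.88 and 7.75 at 36 h, and it fell by 0.84 ± 0.15 (adjusted p = 0.000789). That fall came between 8 h and 36 h, a change of -0.77 ± 0.15 (adjusted p = 0.00941, 0.0462% of probe sets called lower), lost without any 8 h or 36 h array of the line (0.0618 to 0.315). BCL6 was at 4.37 and 4.99 at 0 h, 5.58 and 5.58 at 8 h and 5.78 and 5.78 at 36 h, and rose by 1.10 ± 0.21 at 36 h (adjusted p = 0.00227, but 0.228 without the lower 0 h array). Over all probe sets 0.714% were called higher and 0.154% lower in HL60 at 36 h, against 1 and 2 of the 10.

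The difference between HL60 and the mean of the 4 lymphoblastoid lines was tested after these values were seen. At 36 h it was -1.97 ± 0.24 for TENT5C (adjusted p = 1.27e-06) and -1.89 ± 0.17 for ITM2C (adjusted p = 5.28e-10), with 0.123% of probe sets called lower. For BCL6 it was 1.13 ± 0.24 (adjusted p = 0.00994, 0.334% called higher), and 0.82 (adjusted p = 0.365) without the lower HL60 array at 0 h. It also lost its call without either 36 h array of HL60 (0.095 and 0.097). For TNFRSF17, which lay below the array medians in HL60, the difference was -1.13 ± 0.28 (adjusted p = 0.0549). At 8 h the difference for TENT5C was -1.32 ± 0.24 (adjusted p = 0.00365), the 1 probe set called lower (0.00514%), but not without the first 0 h array (0.119) or the second 8 h array (0.0983) of HL60.

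**Figure D5:**
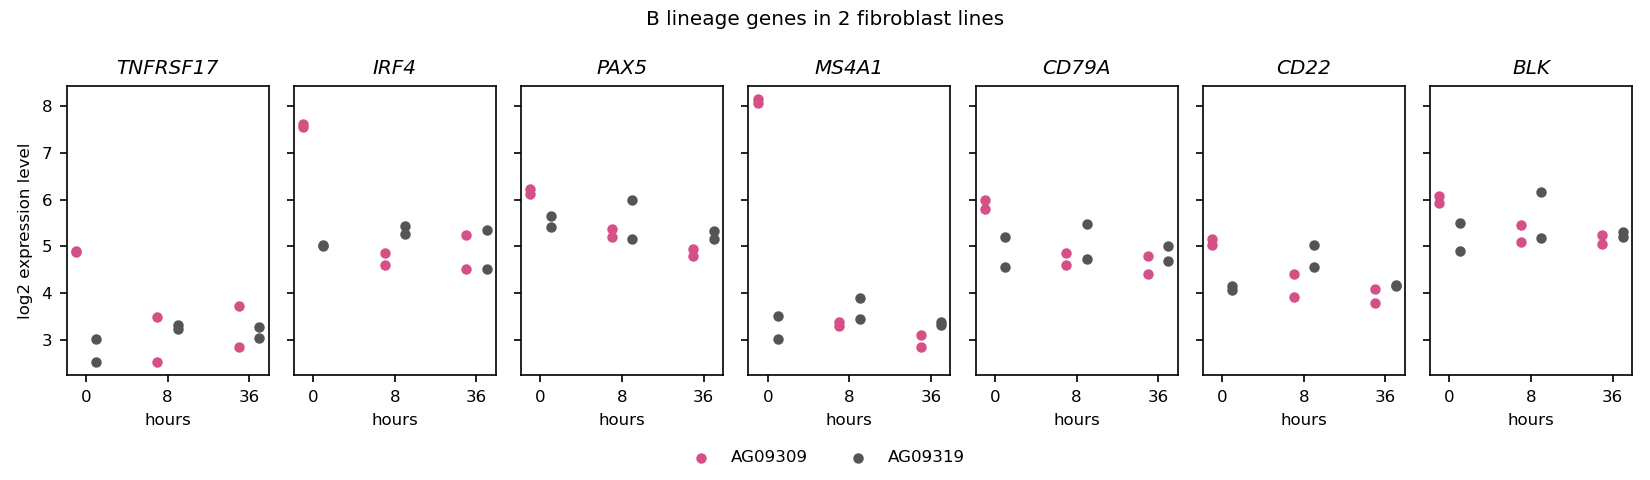
Log2 expression level (vertical axis) at 0, 8 and 36 h in the fibroblast lines AG09309 and AG09319, 1 point per array, for TNFRSF17, IRF4 and PAX5 and for the B cell markers MS4A1, CD79A, CD22 and BLK. In AG09309 both 0 h arrays lie above all 4 later arrays in all 7 panels, and the largest gaps are those of MS4A1 and IRF4.

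In AG09309 IRF4, TNFRSF17 and PAX5 fell. IRF4 was at 7.55 and 7.62 at 0 h, 4.59 and 4.85 at 8 h and 4.51 and 5.24 at 36 h, a change of -2.71 ± 0.22 at 36 h (adjusted p = 1.2e-11). TNFRSF17 changed from 4.89 to 3.01 and 3.29, by -1.88 ± 0.25 at 8 h and -1.61 ± 0.25 at 36 h, and PAX5 from 6.18 to 5.28 and 4.88, by -0.90 ± 0.21 and -1.30 ± 0.21. The TNFRSF17 levels were below the array medians at every time. The 8 h call of PAX5 was lost without any 0 h or 8 h array of the line (adjusted p up to 0.246). Of all probe sets 1.42% were called lower at 8 h and 2.26% at 36 h. The 4 B cell markers were also higher in both 0 h arrays than in all later arrays of the line, with changes of -0.73 to -4.77 at 8 h and -0.86 to -5.13 at 36 h. The part of these markers in the fall of IRF4, TNFRSF17 and PAX5 was not tested.

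In AG09319, whose B cell markers lay within the range of the other lines, PRDM1 went from 6.24 and 5.82 at 0 h to 6.96 and 7.11 at 36 h and rose by 1.01 ± 0.19 (adjusted p = 0.000309). TENT5C rose by 0.83 ± 0.21 (adjusted p = 0.0127, up to 0.158 without 1 array), with 1.78% of probe sets called higher. In AG09309 PRDM1 changed by 0.53 ± 0.19 (adjusted p = 0.0996) and TENT5C by -0.07 ± 0.21. In K562 none of the 10 rose (limma, 0.0411% of probe sets called higher, 1 of the 10 with an unadjusted p under 0.05), and the furthest values were 0.48 ± 0.19 for XBP1 and 0.41 ± 0.21 for BCL6. In HepG2 none fell (limma, 0.797% called lower, 2 of the 10 with an unadjusted p under 0.05), and PRDM1 changed by -0.63 ± 0.19 (adjusted p = 0.071) and SDC1 by -0.56 ± 0.21 (adjusted p = 0.212).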

How the data were processed

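Each sample was 1 Affymetrix Gene 1.0 ST array. The deposited values are log2 expression levels per probe set, summarised by RMA in Affymetrix Expression Console 1.0, per the submitters' processing notes. They were used as deposited. Of 33297 probe sets, 21214 were in the probe-to-gene table and 19460 had 1 gene symbol (19429 matched by gene ID). Lymphoblastoid changes were tested with limma 3.58.1 (R 4.3.3) on 12 line means with line and time as terms. Single lines used 1 fit of 27 groups (27 residual degrees of freedom), and class differences used 27 line means. P-values were adjusted by Benjamini-Hochberg over 19460 probe sets, with a threshold of 0.05. Values after ± are standard errors and intervals are 95%. The number of arrays limits the precision. The genes and lists were chosen with earlier results of these data known. The named genes were the 10 genes, list genes that passed, and the 3 most alike by correlation for the genes shown; other list genes named were chosen after their values were seen. Same-numbered arrays were not treated as pairs. Alternatives were quantile normalization, a shift to 1 median, a filter on low values, all probe sets, the arrays that stood apart, the replicate block and leaving out lines or arrays. Code was tested on simulated data.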

Additional observations from a re-analysis of the deposited data

Results flagged for a closer look

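Dixon's gap test over lines was run on 60 groups of line values of the 10 genes and picked out 6. Chance gives about 1 in 20 of independent groups. These groups are not independent, since levels at 0 h and both changes rest on the same 0 h arrays. No excess over chance can therefore be read from the count. In the lymphoblastoid lines XBP1 changed at 36 h by 0.60 in GM12878 and by 0.10 to 0.15 in the others (gap over range 0.897). BCL6 changed by 0.07 in GM07348 and by -0.06 to -0.05 in the others (0.937), all of them small values on a probe set below the array medians.

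Of the 5 other lines, AG09309 stood apart 4 times. Its IRF4 level at 0 h was 7.58 against 4.90 to 5.60 (0.740). Its IRF4 change was -2.86 at 8 h against -0.19 to 0.47 (0.800) and -2.71 at 36 h against -0.38 to 0.26 (0.785). Its PAX5 change at 36 h was -1.30 against -0.28 to 0.08 (0.738). The 0 h arrays of this line also carried B cell markers, whose part in these values was not tested.

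The change in HL60 differed from the mean change in the lymphoblastoid lines for 3 genes, by a test added after the values were seen. The differences at 36 h were -1.97 for TENT5C, -1.89 for ITM2C and 1.13 for BCL6, and at 8 h -1.32 for TENT5C.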

How the results depend on the processing

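The 1306 alternative values were of single results and of counts of genes. Of them 1157 were rated the same, 116 weaker, 33 stronger and 0 reversed. A single result rated the same kept its direction and side of the threshold, a weaker one no longer passed and a stronger one newly passed. A count rated the same could still change. That lower in AG09309 at 36 h ran from 2 to 3 with all 13 alternatives rated the same. The counts below are of the 10 genes unless a list is named. With all probe sets tested, the count higher in the lymphoblastoid lines at 36 h was 2 in place of 4, that from 8 h to 36 h 0 in place of 2, that in GM10854 0 in place of 1 and that of the germinal centre list 0 in place of 1. With the spread from 9 lines these were 2 at 36 h and 0 from 8 h to 36 h, and the lists gave 1 for B cell identity, 0 for germinal centre and 0 for family relatives. Quantile normalization gave 0 from 8 h to 36 h, 0 in GM10854, 1 higher in AG09309 and 1 lower in HepG2. The filter on low values gave 1 at 8 h, 0 higher in HL60 (BCL6 was below the filter and not tested), 1 higher in AG09309, 1 lower in HepG2, and 5 for plasma cell genes, 1 for secretory genes and 2 for germinal centre genes. The shift to 1 median gave 1 higher in AG09309 and 2 germinal centre genes. Without the 3 arrays that stood apart, GM10854 and AG09309 had 2 higher each. Within the 6 lines of the first title form, AG09309 among them, 2 in place of 4 genes were higher at 0 h. That alternative was chosen after seeing the data. A fit of the 24 lymphoblastoid arrays gave 2 in GM07019 and 2 in GM10854. Over its 14 alternatives the count higher in GM12878 at 36 h ran from 2 to 4, in place of 3.

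With the replicate block, 3 genes passed at 8 h (adjusted p 0.0165 for TNFRSF17, 0.0133 for TENT5C and 0.0165 for ITM2C), 0 in GM10854 and 1 lower in HepG2, and the lists gave 5 plasma cell, 1 secretory and 3 germinal centre genes. Differences between same-numbered arrays correlated by over 0.1 at all 3 pairs of times in GM07348, GM12878 and K562 and not in the other 6 lines (lymphoblastoid range -0.41 to 0.34, median 0.14), and the labels name nothing shared by a number, so the block was not used for the report. Leaving out 1 line or array gave 1 to 2 for the difference between lymphoblastoid lines at 0 h. Over all 33 alternatives that count ran from 1 to 3. Leaving out 1 line gave 0 to 1 from 8 h to 36 h, 0 to 1 for the class difference, 0 to 1 lower at 0 h, 3 to 6 plasma cell, 0 to 1 secretory, 3 to 5 B cell identity and 0 to 3 germinal centre genes. Leaving out 1 array gave 1 to 2 in GM07348, 0 in GM10854, 0 to 1 higher and 1 to 2 lower in HL60, 0 to 1 in K562 and 1 to 2 in AG09319.

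Limits: 2 arrays a group give single lines little precision, and the 0 h arrays are the reference for both later times. BCL6 and BACH2 lie below the array medians in the lymphoblastoid lines, as TNFRSF17 does in the other lines.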
